A study of Mus musculus with 10 samples.

Results

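The transcripts described are those of the p53 response and of the apoptosis machinery, 36 genes chosen by gene name. They were followed in mouse fetal livers at embryonic day 14.5, in 5 Zfp36l2 knockout livers (KO) and 5 wild type livers (WT), all from a mixed b6 and 129 background and all without treatment. Each liver came from a separate fetus and was put on its own Affymetrix array. A gene was taken from every probe set that the platform annotation gives exactly 1 gene symbol, which found 80 probe sets of 33 of the 36 genes among 18193 genes in all. No such probe set stands for Trp53, Bax or Gdf15, so these 3 are named only. Zfp36l2 encodes an RNA-binding protein that promotes decay of mRNAs with AU-rich elements, and the comparison asks which transcripts differ in a liver without it. The construction of the knockout allele and the sex and litter of the fetuses have no description among the labels, and whether fetuses of the 2 genotypes were littermates cannot be told.

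The protein p53 is a transcription factor that is kept low by the ubiquitin ligase MDM2 and its partner MDM4, and that accumulates after DNA damage and other stress. It then switches on genes of cell-cycle arrest, repair and cell death, and Mdm2 itself. Death through mitochondria is set by the BCL2 family, in which BAX and BAK1 open the outer membrane, relatives such as BCL2L1 hold them back and BH3-only proteins tip the balance. Released cytochrome c then joins APAF1 to activate caspase 9, while XIAP blocks caspases and DIABLO removes that block. In the fetal liver, the main site of red cell production at this age, erythroid survival depends on BCL2L1.

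None of the 36 genes was called different between KO and WT livers. An adjusted p under 0.05 (limma, Benjamini-Hochberg over all tested probe sets) is meant by "called". Of the 33 genes with a probe set, 30 passed the filter on low values, and 0 of these 30 were called, where limma called 0.328% of all 12821 tested genes (42 genes) and 0.211% of all 27022 tested probe sets. At that rate a list of this size would seldom hold a call, so the 0 by itself says little. The smallest adjusted p among them was 0.291, that of Bok. At an unadjusted p under 0.05 there were 9 of 30 genes, which is 30%, against 11.4% of all tested genes. Of the 9, Cdkn1a, Mdm2, Plk2, Bok and Bnip2 had higher means in KO livers, where 5.94% of all genes were at that level in this direction. Sesn1, Bad, Casp2 and Diablo had lower means, where 5.44% of all genes were. The livers of the genotypes did not overlap for 2 of the 30, Sesn1 and Bok, against 2.76% of all genes.

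The count of 9 was lower without any single one of the 10 livers, at 4 to 7 members, or 13.3% to 23.3% of those tested. It was 5 without KO replicate 2, 4 without KO replicate 5, 5 without WT replicate 3, 4 without WT replicate 4 and 5 without WT replicate 5. Beside these, the share over all tested genes was 9.92%, 10.5%, 9.92%, 10.2% and 12.1% in the same order. The count was 6 without KO replicate 1, KO replicate 3, WT replicate 1 or WT replicate 2, and 7 without KO replicate 4. The share over all tested genes in those fits ran from 9.95% to 11.9%. A fit without a trend of variance on level gave 5 members and 9.32% of all genes. One with the replicate number as a block gave 10 members and 13.1% of all genes. The count was 6 with arrays scaled by their medians, without normalization and by the mean of a gene's probe sets. All genes in those fits had a share of 9.32% to 11.6%. Other floors, an offset, array weights and robust variance gave 8 or 9 members, against 10.4% to 12% of all genes. Without a filter there were 8 members, against 8.74% of all genes. No member was called in any of the 22 other settings run, these and those with other variance models included.

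The size of change that the data allow was narrow for most members. On the log2 scale, the 95% interval of the difference stayed within 1.5-fold in either direction for 22 of the 30 tested genes, or 73.3%, against 51.3% of all tested genes. The remaining 8, for which a larger difference cannot be set aside, were Cdkn1a, Plk2, Pmaip1, Phlda3, Bbc3, Zmat3, Bok and Bad. The median log2 difference, KO minus WT, was -0.01 over the 30 genes, with 14 positive and 16 negative, and 0.00 over all genes, of which 50.1% were positive.

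**Figure D1:**
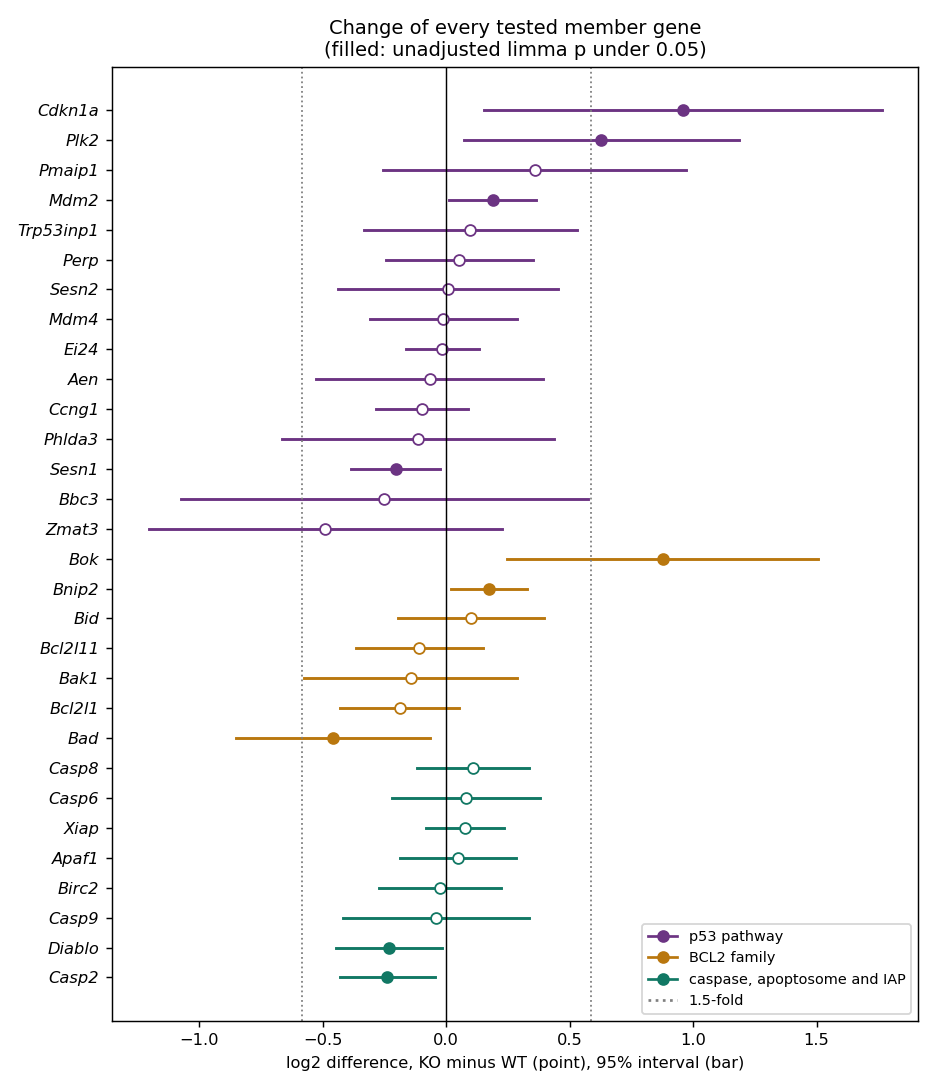
Log2 difference, KO minus WT, of each of the 30 tested genes (points, filled where the unadjusted limma p was under 0.05) with its 95% interval (bars), coloured by group, with dotted lines at 1.5-fold. The changes run from -0.49 (Zmat3) to 0.96 (Cdkn1a), and all 8 genes of the caspase, apoptosome and IAP group have intervals inside the dotted lines.

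Zfp36l2 itself fell in KO livers by its brightest probe set, which had normalized intensities of 82.3 to 109 in KO livers and 389 to 596 in WT livers, a log2 difference of -2.08 ± 0.13 (SE, limma adjusted p = 1.47e-06). A second, dim probe set overlapped between genotypes, at 12.4 to 33.7 in KO and 17.9 to 41.9 in WT livers (log2 difference -0.25, limma adjusted p = 0.858), and the last was under the floor in every liver. Where these probe sets lie in the gene was not analysed here. Array medians before normalization ran from 19.5 to 25.01 intensity units, and each array correlated with the remaining ones at 0.953 to 0.959 on average. The count of 57 called probe sets moved by over 1.5 times without any single one of the 10 livers, from 13 without WT replicate 4 to 168 without WT replicate 5. For arrays, the number of livers limits the precision.

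Marker genes of blood and liver cell types were read beside the members, since whole livers were measured, and calls were made in the megakaryocyte and platelet list and in the mast cell and eosinophil list. The labelled tissue was borne out by hepatocyte genes, 6 of 6 tested, with a summed intensity of 58361 to 69208 in KO livers and 60760 to 65885 in WT livers. Of these 6, 0 were called, and 2 (Fgb and Hnf4a) were higher in KO livers at an unadjusted limma p under 0.05. Over all tested genes, 11.4% were at that level, 5.94% higher and 5.44% lower in KO livers. Of 7 tested megakaryocyte and platelet markers, 4 fell (Pf4, Ppbp, Itga2b and Gp5), all 7 had negative differences, and their summed intensity was 1434 to 2417 in KO livers against 3591 to 5217 in WT livers. Macrophage and monocyte markers summed to 4260 to 5472 in KO livers and 2085 to 4895 in WT livers, with 8 of 8 positive and 0 called. At an unadjusted limma p under 0.05 there were 5 of the 8. Neutrophil markers summed to 13496 to 25449 in KO livers and 5777 to 26590 in WT livers, with 6 of 8 positive and 0 called. The 6 positive ones all had an unadjusted limma p under 0.05. Markers of erythroid cells (6 of 7 negative, 24408 to 27878 in KO and 24965 to 32228 in WT livers) and of proliferating cells (7 of 7 negative, 14312 to 16220 in KO and 16336 to 18392 in WT livers) had 0 calls in limma, with 5 and 4 markers at an unadjusted p under 0.05. Of the mast cell and eosinophil markers, Epx rose, 3 of 3 tested were positive, and Cpa3, Cma1 and Fcer1a were under the filter. Their part in the values of the p53 and apoptosis genes was not tested, and in whole livers fewer cells of a type and less RNA per cell cannot be told apart.

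Direct p53 targets carry a response element made of 10-base units. This unit, its own reverse complement and searched by the p53 consensus on both strands at once, was looked for in RefSeq promoter windows (GRCm38.p6, 250 bases before to 50 after each start). Windows were found for 31 of the 36 genes. Bax, Bbc3 and Pmaip1 also belong to the BCL2 family but, as p53 targets, were counted in the p53 pathway throughout. The unit stood in a window of 8 of 16 p53 pathway genes (Aen, Bax, Ccng1, Cdkn1a, Ei24, Mdm2, Sesn1 and Trp53), or 50%, in 0 of 7 BCL2 family genes and in 1 of 8 caspase, apoptosome and IAP genes (Birc2), against 9.55% of all 27025 genes with a window. A pair of exact units at most 13 bases apart, a form that a full element can take, stood in the Cdkn1a window printed below, and in 0.074% of all genes. Whether p53 uses this pair was not tested. A match is a stretch of letters and not a shown binding site. The windows of the 4 targets with units whose livers are given below are printed with the exact units in capitals. A unit with a mismatch, even one beside an exact unit, was not counted and stays in lower case.
Cdkn1a, chr17:29090729-29091028, plus strand: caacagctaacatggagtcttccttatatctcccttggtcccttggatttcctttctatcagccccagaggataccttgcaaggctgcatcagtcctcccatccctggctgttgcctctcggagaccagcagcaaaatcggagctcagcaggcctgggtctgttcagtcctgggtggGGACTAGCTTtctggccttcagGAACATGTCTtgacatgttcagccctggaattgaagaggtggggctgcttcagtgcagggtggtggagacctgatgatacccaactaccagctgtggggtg
Mdm2, chr10:117710709-117711008, minus strand: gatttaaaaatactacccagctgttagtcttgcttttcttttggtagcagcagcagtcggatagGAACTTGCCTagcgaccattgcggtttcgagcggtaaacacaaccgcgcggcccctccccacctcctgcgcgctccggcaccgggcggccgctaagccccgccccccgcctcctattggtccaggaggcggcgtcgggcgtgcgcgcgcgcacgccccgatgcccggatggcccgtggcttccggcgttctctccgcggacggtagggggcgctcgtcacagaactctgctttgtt
Sesn1, chr10:41887189-41887488, plus strand: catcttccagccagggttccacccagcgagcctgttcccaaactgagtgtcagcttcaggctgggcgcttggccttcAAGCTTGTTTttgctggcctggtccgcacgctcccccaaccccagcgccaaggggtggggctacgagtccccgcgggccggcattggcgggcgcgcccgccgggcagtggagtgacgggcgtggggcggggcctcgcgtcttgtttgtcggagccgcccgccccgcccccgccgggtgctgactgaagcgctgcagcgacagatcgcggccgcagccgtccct
Ei24, chr9:36797285-36797584, minus strand: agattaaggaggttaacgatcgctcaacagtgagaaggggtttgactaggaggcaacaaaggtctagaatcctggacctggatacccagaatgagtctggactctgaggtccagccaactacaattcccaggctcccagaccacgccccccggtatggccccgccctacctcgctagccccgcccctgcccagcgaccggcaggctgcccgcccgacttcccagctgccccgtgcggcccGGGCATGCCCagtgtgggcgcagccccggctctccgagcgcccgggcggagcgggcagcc
Counted from the start site of the printed window, the units began 73 and 51 bases before it in Cdkn1a, 186 in Mdm2, 173 in Sesn1 and 10 in Ei24. Cdkn1a and Sesn1 each had another window, at another start site, that held no unit. The log2 differences of these 4 genes with a unit were 0.96, 0.19, -0.20 and -0.02 in the order printed, and none was called.

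Among the regulators of p53, Mdm2, the ligase that degrades p53 and is induced by it, had intensities of 334, 380, 328, 349 and 356 in KO livers, replicates 1 to 5, and 353, 302, 279, 302 and 299 in WT livers. The KO livers lay above 4 of the 5 WT livers, and WT replicate 1 lay among the KO livers. The means were 349 ± 20.3 in KO and 307 ± 27.4 in WT livers (SD, n = 5), a log2 difference of 0.19 ± 0.08 (SE) with an unadjusted limma p of 0.0375 and an adjusted p of 0.475 (exact permutation p = 0.0317). A second Mdm2 probe set gave 0.21 (limma adjusted p = 0.552), so both leaned the same way. Mdm4, which binds p53 and mutes its activity, averaged 212 ± 38.8 in KO and 213 ± 36.4 in WT livers (SD, n = 5), a log2 difference of -0.01 with a 95% interval of -0.31 to 0.29.

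The cell-cycle targets did not move as a block. Cdkn1a encodes p21, the inhibitor of cyclin-dependent kinases and the best known p53 target. Its intensities were 59.98, 55.1, 39.5, 33.3 and 21.9 in KO livers and 5.08, 12.5, 52.6, 7.58 and 1.48 in WT livers. In 4 of 5 WT livers it was under 16, the value set as floor, whereas no KO liver was, and WT replicate 3 overlapped the KO range. The log2 difference of 0.96 ± 0.38 (SE) rests on that floor and had an unadjusted limma p of 0.0228 and an adjusted p of 0.406 (exact permutation p = 0.0635). It ranged from 0.27 to 2.26 over the other settings, and the gene's second probe set, dim too, gave 0.34 (limma adjusted p = 0.820).

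Plk2, a p53-induced kinase of centriole duplication and checkpoint control, had intensities of 46.4, 58.2, 57.5, 44.4 and 63.8 in KO livers and 29.6, 41.2, 28.2, 26.7 and 54.2 in WT livers. All 5 KO livers lay above 4 of the 5 WT livers, and WT replicate 5 lay among them. Its log2 difference was 0.63 ± 0.26 (SE, limma unadjusted p = 0.0294, adjusted p = 0.432). These Plk2 values are dim, and its second probe set was under the floor in every liver. Ccng1, cyclin G1, a strong target in stressed tissue, averaged 230.4 ± 15.97 in KO and 247 ± 12.7 in WT livers (SD, n = 5). Its log2 difference was -0.10 with an interval of -0.29 to 0.09, and its other probe sets gave 0.04 and 0.02.

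Sestrins and TP53INP1 link p53 to metabolic and oxidative stress. Sesn1, which restrains the growth kinase mTORC1, had intensities of 222, 253, 232, 250 and 229 in KO livers and 261, 271, 300, 262 and 272 in WT livers. Every KO liver lay below every WT liver. The means of 237 ± 13.6 in KO and 273 ± 15.9 in WT livers (SD, n = 5) gave a log2 difference of -0.20 ± 0.08 (SE), with an unadjusted limma p of 0.0287, an adjusted p of 0.431 and an exact permutation p of 0.00794, the smallest that 5 against 5 livers allow. The other 3 Sesn1 probe sets gave -0.27, -0.15 and -0.11, so all 4 were negative, with adjusted p from 0.431 to 0.943. With median scaling the first gave -0.14. The probe set used is of the _s_at kind, which by Affymetrix convention can also match related transcripts. Sesn2, its stress-induced relative, averaged 64.6 ± 11.5 in KO and 64.2 ± 10.4 in WT livers (log2 difference 0.01). Trp53inp1, a promoter of p53 activity and autophagy, averaged 133 ± 30.0 in KO and 126 ± 37.7 in WT livers (log2 difference 0.10), and varied more within a genotype than between them.

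The targets that favour cell death showed no common direction. Bbc3 (PUMA) and Pmaip1 (NOXA) encode BH3-only proteins induced by p53, and both probe sets were dim. Bbc3 averaged 32.04 ± 20.9 in KO and 36.3 ± 15.2 in WT livers (SD, n = 5), a log2 difference of -0.25 with an interval of -1.08 to 0.57. Pmaip1 averaged 23.0 ± 15.1 in KO and 17.6 ± 9.65 in WT livers, and its difference of 0.36 (interval -0.25 to 0.97) rests in part on 1 KO and 2 WT livers under the floor. Zmat3, an RNA-binding zinc finger protein, had a log2 difference of -0.49 (interval -1.20 to 0.23) between dim values of 10.9 to 54.2 in KO livers and 33.3 to 54.9 in WT livers, with 1 KO liver under the floor. With a floor of 32 the differences were -0.07 for Bbc3 and -0.12 for Zmat3, and leaving out 1 liver they ran from -0.57 to -0.08 for Bbc3, without KO replicate 3 and without WT replicate 3, while Zmat3 had -0.29 without KO replicate 1 and -0.32 without KO replicate 3. The intervals of all 3 leave room for changes beyond 1.5-fold.

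Perp, a membrane protein of epithelial adhesion and p53-driven death, Aen, an apoptosis-enhancing nuclease, and Phlda3, an inhibitor of AKT signalling, had log2 differences of 0.05, -0.07 and -0.11, with limma adjusted p from 0.938 to 0.957. The 4 tested Aen probe sets ran from -0.54 to 0.17, the extremes being dim. Phlda3 varied widely between livers of the same genotype, with 217, 89.1, 161, 119 and 109 in KO livers and 212, 118, 210, 125 and 91.4 in WT livers. Its ranges in the genotypes were nearly the same. Ei24, a p53-induced protein of the endoplasmic reticulum, was the steadiest member, with 441, 473, 449, 426 and 393 in KO livers and 454, 433, 445, 432 and 437 in WT livers. Its log2 difference was -0.02 with an interval of -0.16 to 0.13.

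The death receptors that p53 can induce were near or under the floor. The probe set used for Eda2r ran from -4.13 to 5.45 in KO and from -20.0 to 6.92 in WT livers. That of Tnfrsf10b, the mouse TRAIL receptor, ran from -9.88 to 17.9 in KO and from -18.2 to 8.63 in WT livers. That of Fas ran from -10.5 to 10.7 in KO and from -52.8 to 24.5 in WT livers. No fold is given for these 3 genes, which did not pass the filter. In all, 15 of 18 p53 pathway genes with a probe set were tested, 7 positive and 8 negative, with a median log2 difference of -0.01. Of the 15, 4 (26.7%) had an unadjusted limma p under 0.05, against 11.4% of all tested genes. They were Cdkn1a, Mdm2 and Plk2 with positive and Sesn1 with a negative difference.

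**Figure D2:**
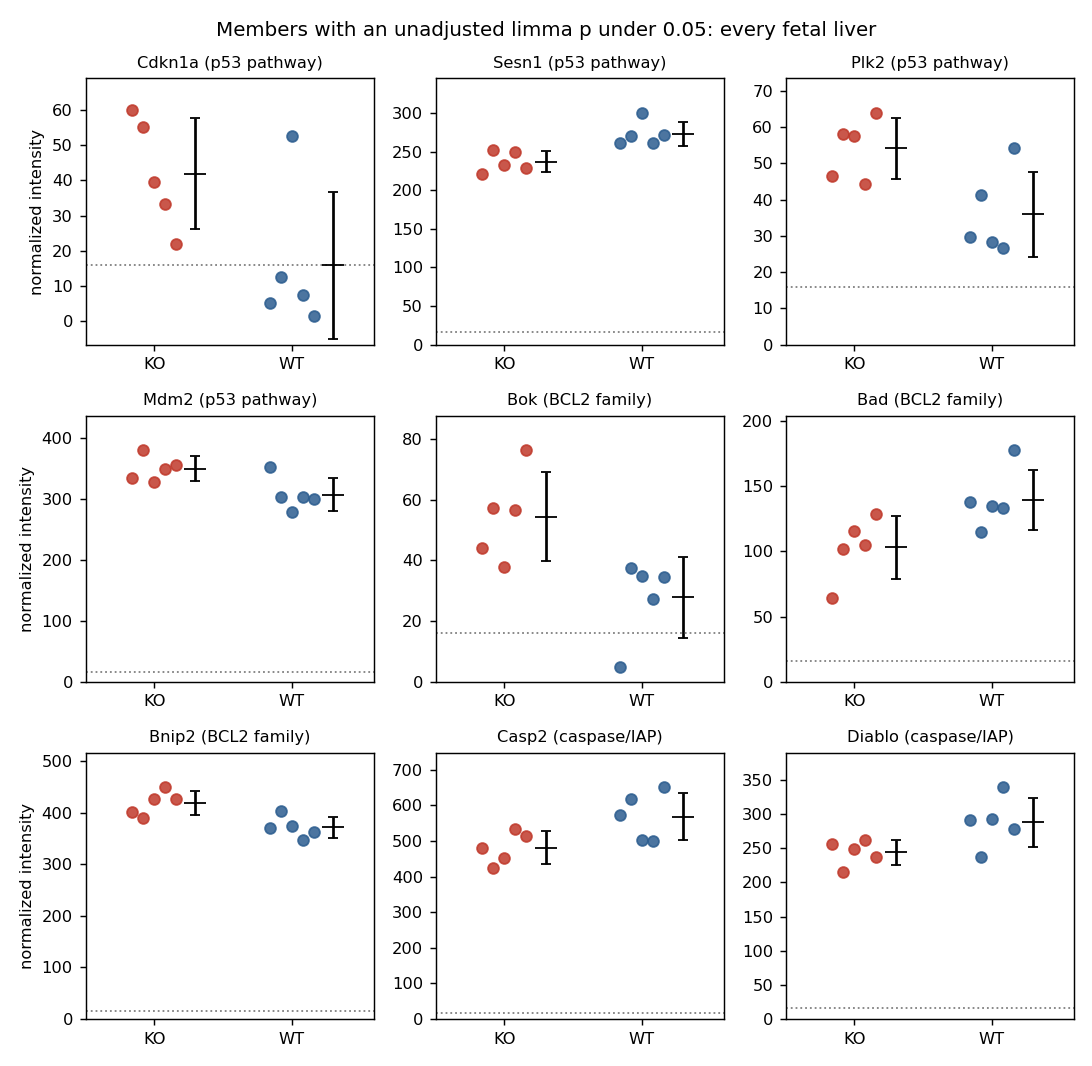
Normalized intensity (linear axis) of the 9 genes with an unadjusted limma p under 0.05 in each of 5 KO livers (red, replicates 1 to 5 from left to right) and 5 WT livers (blue), with mean and SD in black and the floor of 16 dotted. The genotypes separate without overlap for Sesn1 and Bok, and Cdkn1a has 4 WT livers under the floor.

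In the BCL2 family as grouped here, 7 of 7 genes were tested, 3 positive and 4 negative, with a median log2 difference of -0.11. None was called. The group leaves out Bax, which had no probe set, and Bbc3 and Pmaip1, given above with the p53 targets. It takes in Bnip2, which was listed for its binding of BCL2. Bcl2l1, whose BCL-XL protein protects maturing red cells from death, had intensities of 665, 812, 818, 558 and 790 in KO livers and 711, 822, 814, 761 and 1034 in WT livers. The genotypes overlapped, with the highest value in WT replicate 5 and the lowest in KO replicate 4. The log2 difference was -0.19 ± 0.11 (SE, limma adjusted p = 0.631), and the other 2 tested probe sets gave -0.06 and -0.14. It was -0.11 with median scaling, -0.10 without KO replicate 4 and -0.11 without WT replicate 5. The erythroid markers given above leaned the same way, and their part in this value was not tested.

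Of the pore-forming effectors, Bak1 averaged 73.9 ± 4.78 in KO and 83.9 ± 21.7 in WT livers (SD, n = 5), a log2 difference of -0.14. Bok, a BAX-like protein that can act without the other effectors, had intensities of 44.1, 57.2, 38.0, 56.7 and 76.3 in KO livers and 4.82, 37.5, 34.8, 27.4 and 34.5 in WT livers. Every KO liver lay above every WT liver, but KO replicate 3 at 38.0 and WT replicate 2 at 37.5 nearly touched, and WT replicate 1 was under the floor. The means were 54.4 ± 14.7 in KO and 27.8 ± 13.4 in WT livers (SD, n = 5). The log2 difference was 0.88 ± 0.30 (SE, interval 0.25 to 1.51), with an unadjusted limma p of 0.00936, an adjusted p of 0.291 and an exact permutation p of 0.00794. Over the other settings its adjusted p ran from 0.209 to 0.558.

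The BH3-only members went different ways. Bad, which is held inactive by survival signalling through phosphorylation, had intensities of 64.5, 102, 116, 105 and 129 in KO livers and 138, 115, 134, 133 and 177 in WT livers. KO replicates 3 and 5 lay within the WT range and the other 3 KO livers below it. The log2 difference was -0.46 ± 0.19 (SE, limma unadjusted p = 0.0248, adjusted p = 0.416), and -0.30 without KO replicate 1, and a second Bad probe set was below 0 in every liver. Bid, which carries the death receptor signal to mitochondria, averaged 216 ± 34.9 in KO and 201 ± 33.5 in WT livers (log2 difference 0.10). Bcl2l11, which encodes BIM, averaged 202 ± 21.4 in KO and 218 ± 31.5 in WT livers (log2 difference -0.11), while its 4 other tested probe sets ran from -0.49 to 0.40, the extremes being dim.

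Bnip2, named for its binding of BCL2, had intensities of 402, 390, 428, 449 and 428 in KO livers and 371, 403, 375, 348 and 364 in WT livers. WT replicate 2 lay within the KO range and the other 4 WT livers below it. The log2 difference was 0.17 ± 0.07 (SE, limma unadjusted p = 0.0300, adjusted p = 0.436). Its 3 other tested probe sets did not share that value, with 0.10 and -0.02 from bright ones and 0.30 from a dim one.

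**Figure D3:**
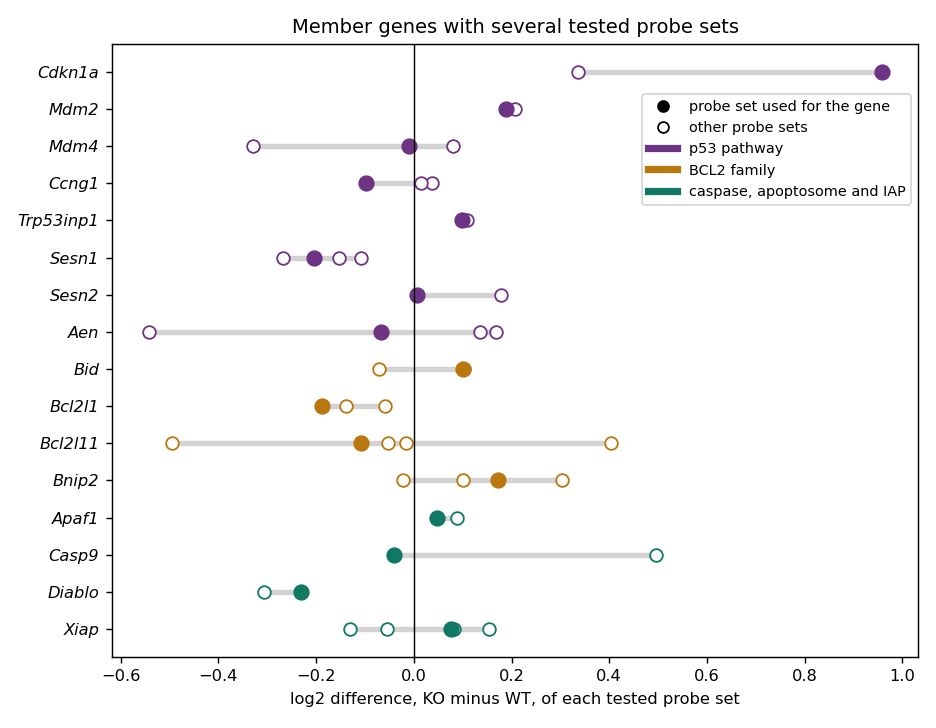
Log2 difference, KO minus WT, of every tested probe set of the 16 genes that had several, with the probe set used for the gene filled. All probe sets of a gene have the same sign for 8 genes, such as Sesn1, Mdm2 and Diablo, and mixed signs for the other 8, such as Bcl2l11 and Bnip2.

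The caspases, the apoptosome and its inhibitors were the tightest group. All 8 genes were tested, 4 positive and 4 negative, with a median log2 difference of 0.01 and none called. By the probe set used for each gene, every interval was within 1.5-fold. Casp2, a conserved caspase activated by genotoxic and spindle stress, had intensities of 481, 423, 451, 535 and 515 in KO livers and 572, 617, 502, 501 and 650 in WT livers. Its 3 lowest KO livers lay below every WT liver, and the other 2 lay within the WT range. The means of 481 ± 45.7 in KO and 569 ± 67.3 in WT livers (SD, n = 5) gave a log2 difference of -0.24 ± 0.09 (SE, limma unadjusted p = 0.0183, adjusted p = 0.378, exact permutation p = 0.0556).

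Diablo, which encodes SMAC, the mitochondrial antagonist of IAPs, had intensities of 256, 216, 249, 262 and 237 in KO livers and 292, 237, 293, 339 and 278 in WT livers. All WT livers but replicate 2 lay above all KO livers. The log2 difference was -0.23 ± 0.10 (SE, limma unadjusted p = 0.0369, adjusted p = 0.471), and a second, dimmer probe set gave -0.31. Xiap, the IAP that binds caspases 3, 7 and 9, had intensities of 632, 652, 598, 581 and 544 in KO livers and 620, 522, 535, 611 and 564 in WT livers. These ranges overlapped over most of their length, with a log2 difference of 0.08 (interval -0.08 to 0.23). The 5 tested Xiap probe sets ran from -0.13 to 0.15.

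Birc2, the ubiquitin ligase cIAP1, averaged 159 ± 14.99 in KO and 161 ± 15.3 in WT livers (SD, n = 5), a log2 difference of -0.02. Apaf1, the scaffold of the apoptosome, averaged 259 ± 21.6 in KO and 252 ± 34.3 in WT livers, a difference of 0.05. The initiators Casp9 and Casp8 had log2 differences of -0.04 and 0.11, and Casp6, an executioner, 0.08. For these 5 genes, by the probe set used, the adjusted limma p ran from 0.809 to 0.971. A second, dim Casp9 probe set gave 0.50, with an interval of -0.08 to 1.08 that passes 1.5-fold.

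The livers also varied as individuals. The level of each group in a liver, taken as the median over its genes of the log2 value minus the gene's mean over 10 livers, ran from -0.08 to 0.10 in KO and from -0.08 to 0.09 in WT livers for the p53 pathway. It ran from -0.09 to 0.07 in KO and from -0.11 to 0.08 in WT livers for the BCL2 family, and from -0.08 to 0.02 in KO and from -0.05 to 0.12 in WT livers for caspases, apoptosome and IAPs. The genotypes overlapped in all 3 groups. Within a genotype, the SD of the log2 value had a median of 0.23 over the 30 genes and 0.28 over all genes, and the steadiest members were Ei24 (0.07), Bnip2 (0.08) and Sesn1 (0.08), the most variable Bbc3 (0.71), Cdkn1a (0.68) and Zmat3 (0.56), all 3 dim.

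**Figure D4:**
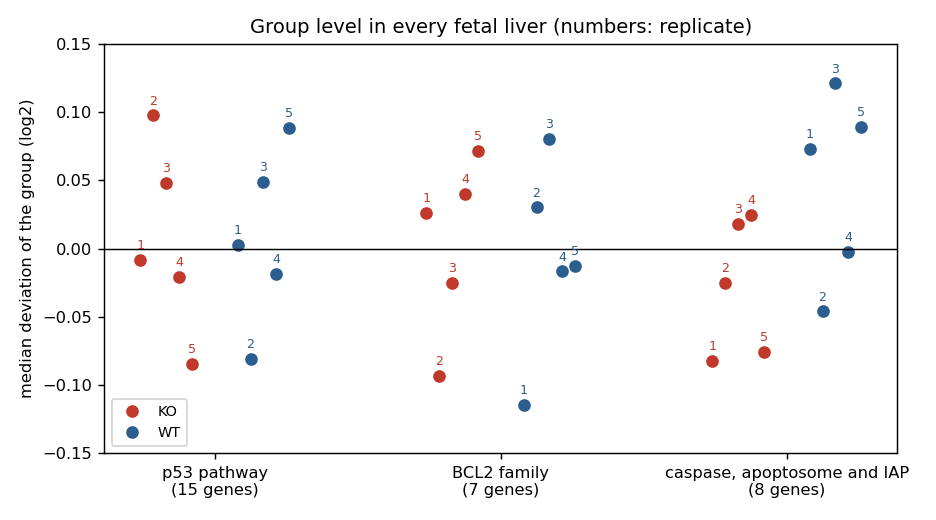
Median deviation (log2) of the genes of each group in each liver from their mean over all 10 livers, KO in red and WT in blue, with replicate numbers above the points. The genotypes overlap in every group, and values stay between -0.11 and 0.12.

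Other genes of the same pathway, came from a list of 74 that holds none of the 36. Of these, 62 were tested and limma called 0, with 9 (14.5%) at an unadjusted p under 0.05, near the 11.4% of all genes, 4 with positive and 5 with negative differences. Of the 62, 19 were positive and 43 negative, with a median of -0.07, and among the 12 tested regulators of p53 the numbers were 1 and 11, with a median of -0.13. With arrays scaled to their medians instead, the median of all genes was 0.06, and signs within this list were not counted under that scaling.

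Cycs, cytochrome c, the signal released from mitochondria, had the lowest p of that list. It averaged 4449 ± 212 in KO and 3824 ± 177 in WT livers (SD, n = 5) with no overlap, a log2 difference of 0.22 ± 0.05 (SE, limma adjusted p = 0.104). Averaged over all tested probe sets of the gene, the difference was 0.01 (limma adjusted p = 0.987). Trp53bp1, a DNA damage response protein that binds p53, averaged 248 ± 18.6 in KO and 342 ± 59.2 in WT livers with no overlap. Its log2 difference of -0.45 ± 0.11 (SE) had a limma adjusted p of 0.113, and it was called without WT replicate 5 (-0.51, limma adjusted p = 0.0494) and in no other setting. Birc3, the IAP cIAP2, averaged 100.4 ± 15.6 in KO and 64.4 ± 12.8 in WT livers (log2 difference 0.65, limma adjusted p = 0.222), with 0.29 as the mean of its probe sets. The p53 targets Ddb2, a damage sensor of nucleotide excision repair, and Pidd1, the scaffold that activates caspase 2, had log2 differences of -0.59 each, with limma adjusted p of 0.307 and 0.413, and Ddb2 had -0.30 as the mean of its probe sets. Bnip3, a mitochondrial protein induced by hypoxia, had 0.40 (limma adjusted p = 0.394).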

How the data were processed

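RNA of 10 single fetal livers was labelled with an Affymetrix kit, per the labels' protocols. The deposited table holds 1 linear, background-subtracted intensity per probe set and array. The sources used here do not give the authors' software or scaling. Values were quantile-normalized between arrays, those under 16 set to 16 and log2 taken. A floor near 0 would turn dim values into large negative ones. Of 45037 probe sets, those with a mean log2 value above the 40th percentile, 27022, entered a two-sided limma fit (version 3.58.1 under R 4.3.3), its variance trended on level. P-values were adjusted over all of them, and intervals, at 95%, were not. Each gene is represented by its brightest probe set, by mean log2 value. Of the probe sets, 34945 carried 1 symbol, 932 several and 9160 none.

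Genotype and replicate came from the titles. Exact permutation tests are two-sided over the livers. The method was also run on simulated data with changes put only into brighter probe sets. That run does not cover the dim members, and no result here rests on it. Members, lists, floor and filter were chosen with earlier results of these data known. By rule, values of every liver were to be given for Trp53, for members with an unadjusted p under 0.05 and the 2 members with the highest mean of each group. Trp53 had no probe set with 1 symbol, and Phlda3 was added after its values were seen. Other pathway genes are the 6 with the lowest p. Alternatives covered normalization, floor, offset, filter, variance model, array weights, replicate block, probe set choice and leaving out each liver. Promoters came from RefSeq. Python 3.11.15 and matplotlib 3.10.9 made the figures.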

Additional observations from a re-analysis of the deposited data

Results flagged for a closer look

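Among 60 sets of 5 livers of the tested members, 4 values lay far from the remaining livers of that genotype by Dixon's ratio, where chance gives about 1 in 20, or 3. Cdkn1a was high in WT replicate 3, at a log2 value of 5.72, with the other 4 WT livers set to the floor, so that any value above it would stand apart and this one carries no weight. Perp was low in WT replicate 1 (6.79), Aen was low in WT replicate 5 (5.91) and Apaf1 was low in WT replicate 2 (7.59).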

How the results depend on the processing

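No member was called in any of the 22 other settings, and 18 of the 30 members kept their sign in all of them. Of 656 values, 622 kept their sign and 34 changed it. The cause of the changes was not tested. Called probe sets, 57 as reported, numbered 94 with median scaling, 11 with a floor at the lowest positive value, 12 with a floor of 32, 4 without a filter, 9 without a trend, 101 with robust variance, 103 with array weights and 13 to 168 leaving out 1 liver. Members at an unadjusted p under 0.05 numbered 5 without a trend and 4 to 7 leaving out 1 liver, and other pathway genes called 0 to 1. With median scaling, which moved the median of all genes to 0.06, the group medians became 0.0601 (p53 pathway), -0.0289 (BCL2 family) and 0.0858 (caspases, apoptosome and IAPs), and differences became 0.0597 for Mdm4, 0.00348 for Aen, 0.0601 for Ei24, 0.0206 for Casp9 and 0.0532 for Birc2. Mdm4 had 0.00298 with array weights, Sesn2 -0.0187 without normalization, Pmaip1 -2.05 with the lowest floor and Casp9 0.228 as the mean of its probe sets. Leaving out 1 liver at a time, differences ran from -0.0898 to 0.0838 for Mdm4, -0.00866 to 0.25 for Trp53inp1, -0.0867 to 0.0928 for Sesn2, -0.292 to 0.0274 for Phlda3, -0.0194 to 0.14 for Perp, -0.281 to 0.0254 for Aen, -0.0449 to 0.0219 for Ei24, -0.0457 to 0.0946 for Apaf1, -0.0249 to 0.136 for Casp6, -0.123 to 0.0121 for Casp9 and -0.0759 to 0.0197 for Birc2. The filter at the 60th percentile left no value for the dimmest members. The labels do not say what a replicate number marks, and the numbers were not used to pair livers: with the replicate block 179 probe sets and 0 members were called, and deviations of same-numbered livers correlated at 0.0285 to 0.130, 1 of 5 over 0.1 and 4 of 5 KO livers closest to their own number, so a shared litter or day cannot be told. Signal over background limits Cdkn1a, Bbc3, Pmaip1, Zmat3, Bok and Plk2.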
